A study of Saccharomyces cerevisiae with 6 samples.

Results

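The CLB2 cluster and related mitotic genes of budding yeast (Saccharomyces cerevisiae) were described here as 31 listed genes among the 5970 protein-coding genes outside the ribosomal DNA (rDNA) whose promoter was tested. They were chosen by name, with earlier results of these data known, so their comparison with all promoters is a description. The list holds cyclins, kinases and parts of the anaphase-promoting complex, transcription regulators, bud site and cytokinesis proteins, spindle motors and a group of mixed roles. For each gene, the 500 bp and the 1000 bp upstream of the start codon and the gene body were read from anti-FLAG chromatin immunoprecipitation followed by sequencing (ChIP-seq), with 3 WT samples (strain OAy1102) and 3 rpd3Δ samples (strain YHy17). Each of the 6 samples came from about 100 mL of cells in YEPD at 23 °C, stopped in G1 by α-factor (near 5 nM, near 4 h) and fixed with 1% formaldehyde. The labels do not name the FLAG-tagged protein; the series title names the forkhead protein Fkh1 and the histone deacetylase Rpd3. Whether the 3 samples of a strain were grown apart is not given in the labels; p-values here reflect sample-to-sample spread alone, and that spread may be technical.

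In budding yeast the CLB2 cluster is the set of genes transcribed together as cells pass from G2 into mitosis. The MADS box protein Mcm1 and the forkhead protein Fkh2 bind their promoters, and the coactivator Ndd1 joins them when mitotic cyclin and polo kinases are active; Fkh1, the paralog of Fkh2, binds many of the same genes. The products drive mitosis and its exit: Clb1 and Clb2 are the mitotic cyclins, Cdc20 activates the anaphase-promoting complex, and Swi5 turns on the genes of the next G1. In cells held by α-factor these genes are normally transcribed little.

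The 6 libraries held 3987250 to 6785491 summed bin counts, of which the rDNA took 37.1% to 49.7% in WT and 56.0% to 64% in rpd3Δ. Outside the rDNA the median bin of 50 bp held 7 to 12 counts. RPD3 itself checked the genotype labels: its gene body stood at 0.745 to 0.923 of the mean in WT and at 0.0741 to 0.115 in rpd3Δ. BAR1, the protease that destroys α-factor, was at 0 in every sample of both strains. Signal is given as the mean count per bin of a window divided by the median bin of the surrounding 20 kb in the same sample, called the local background. No unprecipitated input was analysed here, so this ratio is not an enrichment over input. Since the local background is itself only 7 to 12 counts in most places, the ratio moves in coarse steps.

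The mitotic promoters carried more signal than most promoters in both genotypes. Their median over local background was 1.97 in WT and 2.04 in rpd3Δ, against 1.16 and 1.11 over all promoters. At least 2 times the local background was reached by 14 of the 31 in WT (45.2%) and by 17 in rpd3Δ (54.8%), against 12% and 10.9% of all promoters. Of the 31, 13 were among the 597 highest of all promoters in WT and 14 in rpd3Δ. Below the local background in WT were 2 of the 31, CLB1 and KIN3, against 31.5% of all promoters. In each sample alone the members' median was above the median over all promoters, by differing amounts. The members' median ran from 1.58 in WT sample 3 to 2.31 in rpd3Δ sample 1. The median over all promoters ran from 1.08 to 1.20. Sample 3 gave the lowest ratio of its genotype for 26 of the 31 genes in WT and for 26 in rpd3Δ, against 51.8% and 47.0% of all promoters. Without WT sample 3, 19 of the 31 promoters reached 2 times the local background, against 13.9% of all promoters.

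**Figure D1:**
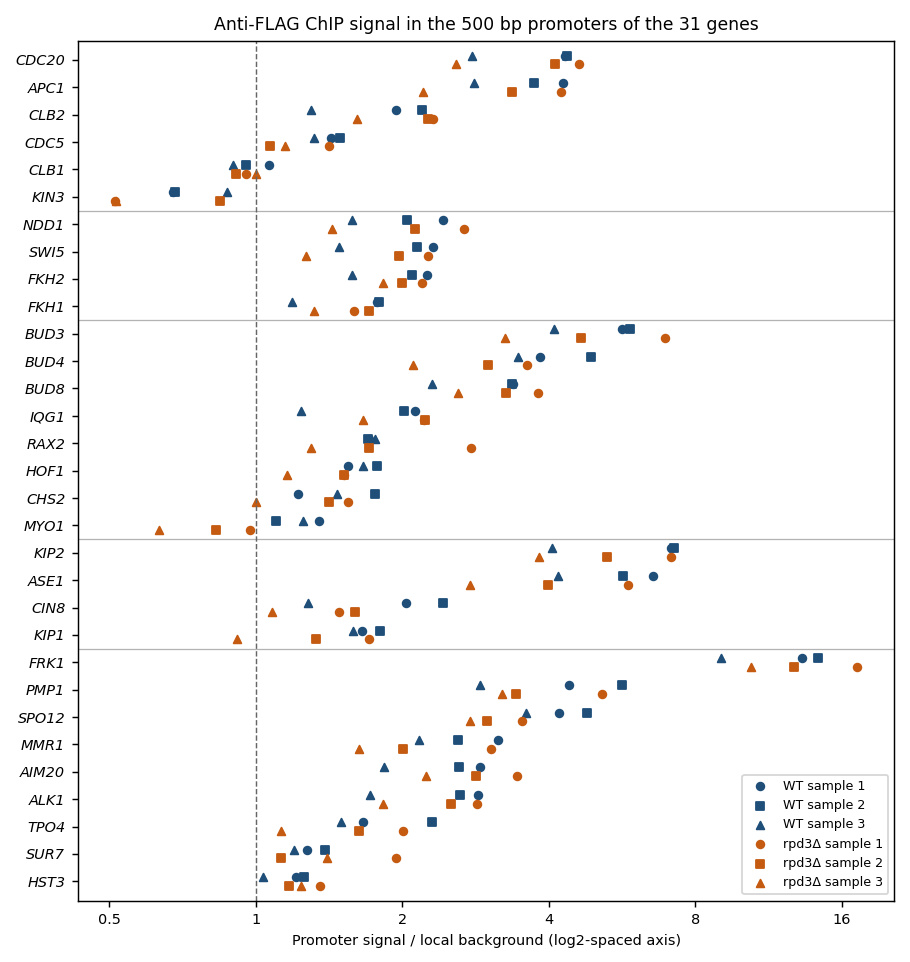
Promoter signal over local background (x axis, log2-spaced, no unit) for the 31 genes (rows, grouped by role from cyclins and kinases at the top to mixed roles at the bottom); each point is 1 sample, blue for WT and orange for rpd3Δ. FRK1 stands furthest right at 9.01 to 17.2, KIN3 furthest left, and triangles (sample 3) are mostly the lowest of their colour.

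Binding regions were called once on the 6 samples together, as stretches at 2 or more times the local median. They overlapped the promoters of 18 of the 31 genes (58.1%), against 931 of all 5970 promoters (15.6%). Any overlap with the 500 bp window counted, also where the highest point of the region lay further out, as for CLB1 at 661 bp upstream. With a threshold of 3 times the local median the count was 12 (38.7%, against 6.21%), and with 1.5 times it was 26 (83.9%, against 30.7%). The 13 genes outside a region at 2 times were CDC5, KIN3, SWI5, FKH1, HOF1, CHS2, MYO1, IQG1, RAX2, CIN8, KIP1, HST3 and SUR7. In 17 of the 18 regions the highest point lay between genes; the exception was PMP1, whose region peaked 608 bp upstream, inside the coding sequence of the next gene, YCR025C. Of the 18 genes, 6 share their upstream interval with a divergent neighbour within 1000 bp, as do 14 of all 31, so signal there cannot be given to one of the 2 genes.

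The signal lay upstream of the genes. Relative to local background, the median gene body stood at 0.87 for WT and 0.95 for rpd3Δ, and 22 of the 31 lay below 1 in WT (71.0%, against 50.6% of all genes). The promoter exceeded the gene body in all 6 samples for 25 of the 31 (80.6%), against 32.1% of all genes. In WT the promoter held at least 2 times the signal of the body in 18 of the 31 (58.1%), against 9.78% of all genes, and the median ratio was 2.19 against 1.15. The lowest bodies in WT were those of CLB1 at 0.50, CLB2 at 0.60 and MYO1 at 0.67; in rpd3Δ these had 0.53, 0.74 and 0.71. PMP1, a gene of only 123 bp inside a region of 1450 bp, had the highest mean body at 2.17 in WT and 2.07 in rpd3Δ. Its WT samples had 3.21, 1.72 and 1.58, so the WT rank rested on sample 1; AIM20 had 2.05, 1.73 and 1.96.

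**Figure D2:**
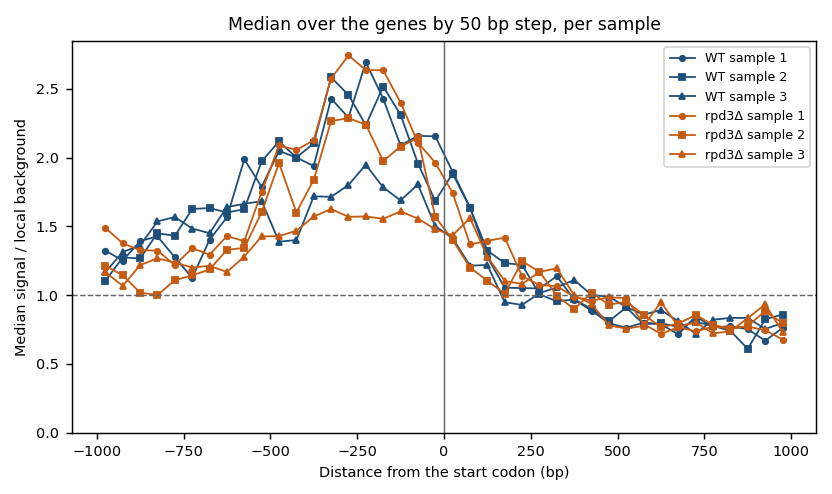
Median over the genes of the signal over local background (y axis, no unit) in steps of 50 bp from 1000 bp before to 1000 bp after the start codon (x axis), 1 line per sample. All 6 lines rise above 1 upstream, where the step at 200 to 250 bp before the start codon holds 1.57 to 2.69, and lie below 1 in the last step, at 0.677 to 0.858; genes shorter than the distance drop out, leaving 27 of 31 at the right edge.

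In steps of 50 bp the position of the highest upstream signal was also read for each gene. A highest step of at least 3 times the local background in WT was found for 15 of the 31 genes (48.4%), against 13.7% of all promoters. In these 15 it lay between 75 and 725 bp upstream of the start codon, with a median of 225 bp, and for 12 of them within 500 bp. For 14 of the 15, at least 5 of the 6 samples placed their highest step within 1 step of that position, and for 6 of them all 6 samples did. These 6 were BUD3, BUD4, BUD8, KIP2, SPO12 and FRK1.

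**Figure D3:**
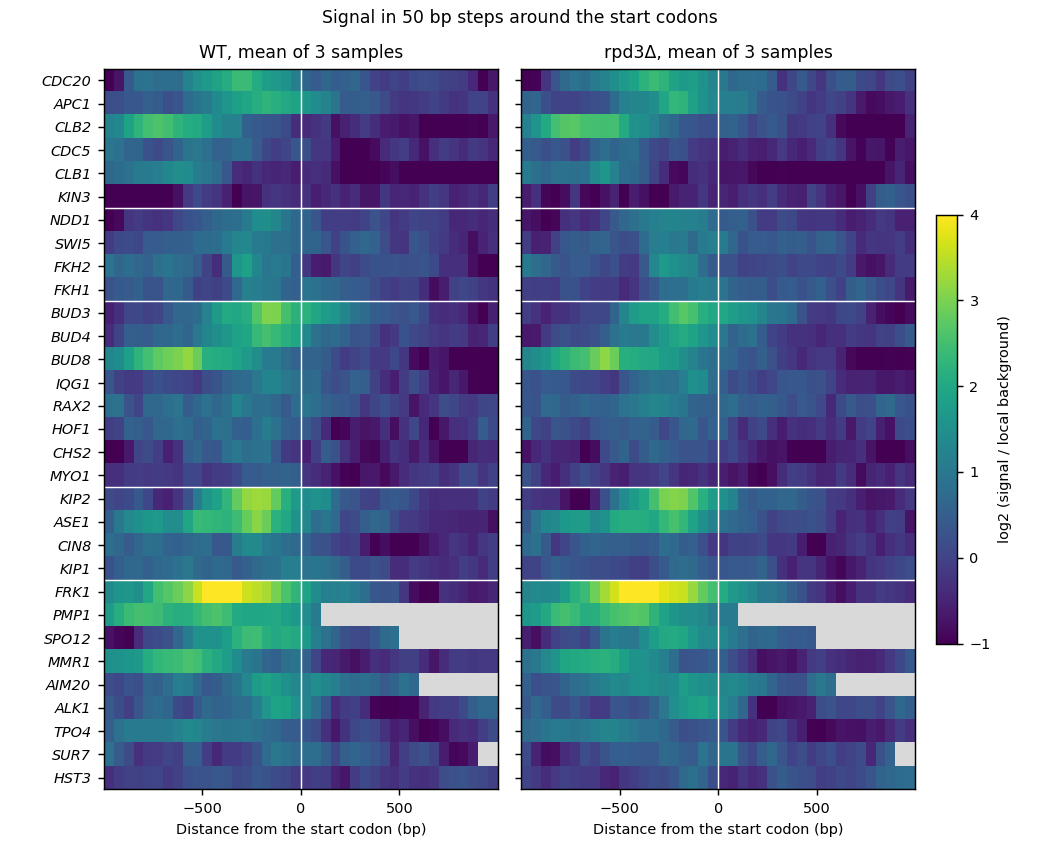
Signal over local background (colour, log2 scale, capped at -1 and 4) in steps of 50 bp around the start codon (x axis, bp) for the 31 genes (rows by role), as the mean of 3 WT samples at left and of 3 rpd3Δ samples at right; grey marks positions beyond a short gene. Bright steps lie left of the start codon in both panels, FRK1 is brightest near 375 bp upstream, and CLB2, BUD8 and MMR1 have their brightest steps beyond 500 bp.

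Among the cyclins, the anaphase-promoting complex and the mitotic kinases, CDC20 had the highest promoter signal. Its ratios in WT were 4.32, 4.36 and 2.79, and those in rpd3Δ were 4.62, 4.12 and 2.58. The genotypes overlapped, with a log2 fold change (rpd3Δ over WT, on library-scaled counts) of -0.07 (SE 0.222). The region, at chromosome VII positions 289151 to 289950 of the R64 build, covered the 499 bp between CDC20 and the tandem gene ARO5. APC1, which encodes the largest subunit of the complex, followed at 3.61 ± 0.74 in WT and 3.27 ± 1.02 in rpd3Δ (SD, n = 3 each), and shares its 578 bp interval with MDG1. The polo kinase gene CDC5 had 1.41 ± 0.09 in WT and 1.21 ± 0.18 in rpd3Δ. KIN3, for a NIMA-related kinase, had the lowest promoter of the list at 0.74 ± 0.11 and 0.62 ± 0.19.

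CLB2, for the main mitotic cyclin, showed signal mostly further out than 500 bp. Its 500 bp promoter had ratios of 1.94, 2.19 and 1.30 in WT and 2.31, 2.26 and 1.61 in rpd3Δ, overlapping between the genotypes (log2 fold change 0.24 with SE 0.182; adjusted p = 0.615 by edgeR). Over 1000 bp the WT ratios were 3.37, 3.58 and 2.35 and the rpd3Δ ratios 4.71, 3.24 and 2.74, again overlapping. No protein-coding gene lies in the 2350 bp upstream of CLB2, and a tRNA gene bounds them. A single region of 2500 bp, at chromosome XVI positions 768951 to 771450, covered nearly all of this interval. It ran beyond the near edge of the tRNA gene and held a pair of maxima. The near one lay 725 bp upstream, where the step held 6.07 ± 1.26 in WT and 6.54 ± 3.19 in rpd3Δ, and the far one 1925 bp upstream, at 5.21 ± 0.48 and 4.84 ± 0.85. Between them, at 1075 bp, the signal fell to 1.84 ± 0.27 and 1.89 ± 0.57, so that every sample was lower there than at either maximum. Both positions are those of the means. The far maximum was broad, and single samples had theirs from 1725 bp (WT sample 1) to 2125 bp (rpd3Δ sample 3). In rpd3Δ sample 1 the step at 725 bp reached 10.2, against 4.56 and 4.86 in the other 2 rpd3Δ samples.

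CLB1, the paralog of CLB2, also had its signal beyond 500 bp, at lower levels. Its 500 bp promoter was at background, with 0.97 ± 0.08 in WT and 0.95 ± 0.05 in rpd3Δ. Further out, the step at 625 bp held 2.82 ± 0.96 in WT and 2.95 ± 1.54 in rpd3Δ, that at 925 bp held 1.75 ± 0.42 and 1.65 ± 0.31, and that at 1125 bp held 2.41 ± 0.75 and 2.33 ± 0.51. These steps were compared as means: within samples the dip was not deeper than both maxima everywhere, since rpd3Δ sample 3 had 1.63, 2.0 and 2.38 at the 3 positions. CLB1 also has no gene close upstream, with a tRNA gene at 2587 bp.

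The genes of the transcription regulators had moderate signal and little difference between the genotypes. FKH2, for the forkhead protein that sits at these promoters with Mcm1, had ratios of 2.25, 2.09 and 1.57 in WT and of 2.19, 2.0 and 1.82 in rpd3Δ. Its highest step, 275 bp upstream, held 3.62 ± 0.70 in WT and 3.24 ± 0.27 in rpd3Δ, and 5 of the 6 samples had it within 1 step. A narrow region of 250 bp was called there. FKH1 had 1.77, 1.79 and 1.19 in WT and 1.59, 1.71 and 1.32 in rpd3Δ, in the 546 bp it shares with ASG1. SWI5, for the factor that activates genes at the M/G1 border, had 2.31, 2.15 and 1.49 in WT and 2.26, 1.97 and 1.27 in rpd3Δ, in the 888 bp it shares with EKI1. Neither FKH1 nor SWI5 lay in a region at 2 times the local median, and both did at 1.5 times. The fold changes of FKH2, FKH1 and SWI5 were 0.03 (SE 0.189), -0.05 (SE 0.178) and -0.01 (SE 0.182) on the log2 scale. NDD1, for the coactivator, had 2.02 ± 0.43 in WT and 2.08 ± 0.62 in rpd3Δ.

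Bud site and cytokinesis genes ranged widely. BUD3 and BUD4 encode the landmark proteins of axial budding, the pattern of haploid cells, and both had a maximum 175 bp upstream. BUD3 had 5.65, 5.88 and 4.10 in WT and 6.91, 4.66 and 3.26 in rpd3Δ, so the genotypes overlapped (log2 fold change -0.18, SE 0.234). BUD4 had 3.84, 4.88 and 3.45 in WT and 3.61, 3.0 and 2.1 in rpd3Δ. BUD8, for a distal landmark of bipolar budding, had its highest step 575 bp upstream, at 9.07 ± 1.64 in WT and 8.88 ± 1.64 in rpd3Δ, in the 812 bp between it and the tandem gene LUG1. Its 500 bp promoter, which ends short of that step, had 3.01 ± 0.62 and 3.22 ± 0.60. The other genes of the group, IQG1, RAX2, HOF1, CHS2 and MYO1, act in the actomyosin ring, the septum or bipolar budding, and had means between 1.23 and 1.79 in WT. No region at 2 times the local median overlapped their promoters.

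Spindle genes were split. KIP2, a kinesin that carries cargo to the plus ends of cytoplasmic microtubules, had 7.13, 7.22 and 4.06 in WT and 7.14, 5.28 and 3.83 in rpd3Δ. Its 377 bp interval lies between it and the tandem gene PEP4, and its log2 fold change was -0.0019 (SE 0.264). ASE1, for the protein that bundles microtubules at the spindle midzone, had 6.56, 5.67 and 4.17 in WT and 5.81, 3.99 and 2.76 in rpd3Δ. Genotypes overlapped, and the log2 fold change of -0.38 (SE 0.244) did not pass the threshold (edgeR adjusted p = 0.518). The kinesin-5 genes CIN8 and KIP1, whose motors push spindle poles apart, were much lower, at 1.92 ± 0.58 and 1.68 ± 0.11 in WT. Neither lay in a region at 2 times the local median.

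The highest promoter of the list was that of FRK1, a gene for a putative protein kinase. FRK1 had ratios of 13.2, 14.3 and 9.01 in WT and 17.2, 12.8 and 10.4 in rpd3Δ, rank 9 of 5968 promoters in WT and rank 6 in rpd3Δ. The highest step, 375 bp upstream, held 20.6 ± 4.35 in WT and 21.1 ± 5.52 in rpd3Δ, and all 6 samples placed their maximum there or 1 step away. Its region of 1400 bp, at chromosome XVI positions 285801 to 287200, lies in 1452 bp between FRK1 and the tandem gene MKK2 and reaches into the FRK1 coding sequence. The genotypes overlapped, with a log2 fold change of 0.25 (SE 0.369).

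PMP1 and SPO12 were the other high members of mixed role. PMP1, for a small regulatory subunit of the plasma membrane proton pump, had 4.40, 5.66 and 2.88 in WT and 5.14, 3.43 and 3.20 in rpd3Δ. SPO12, for a protein of mitotic exit, had 4.19, 4.80 and 3.58 in WT and 3.52, 2.99 and 2.76 in rpd3Δ, so that every WT sample was above every rpd3Δ sample. Its 585 bp interval is shared with MTC6, itself a CLB2 cluster gene outside the list, and the 2 promoter windows overlap, so that they hold largely the same signal. The remaining genes of the group, MMR1, AIM20, ALK1, TPO4, SUR7 and HST3, had WT means from 1.17 (HST3, for a sirtuin) to 2.64 (MMR1, for the adaptor of mitochondrial inheritance). MMR1 had its highest step 575 bp upstream, at 5.88 ± 1.66 in WT and 4.61 ± 1.12 in rpd3Δ.

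**Figure D4:**
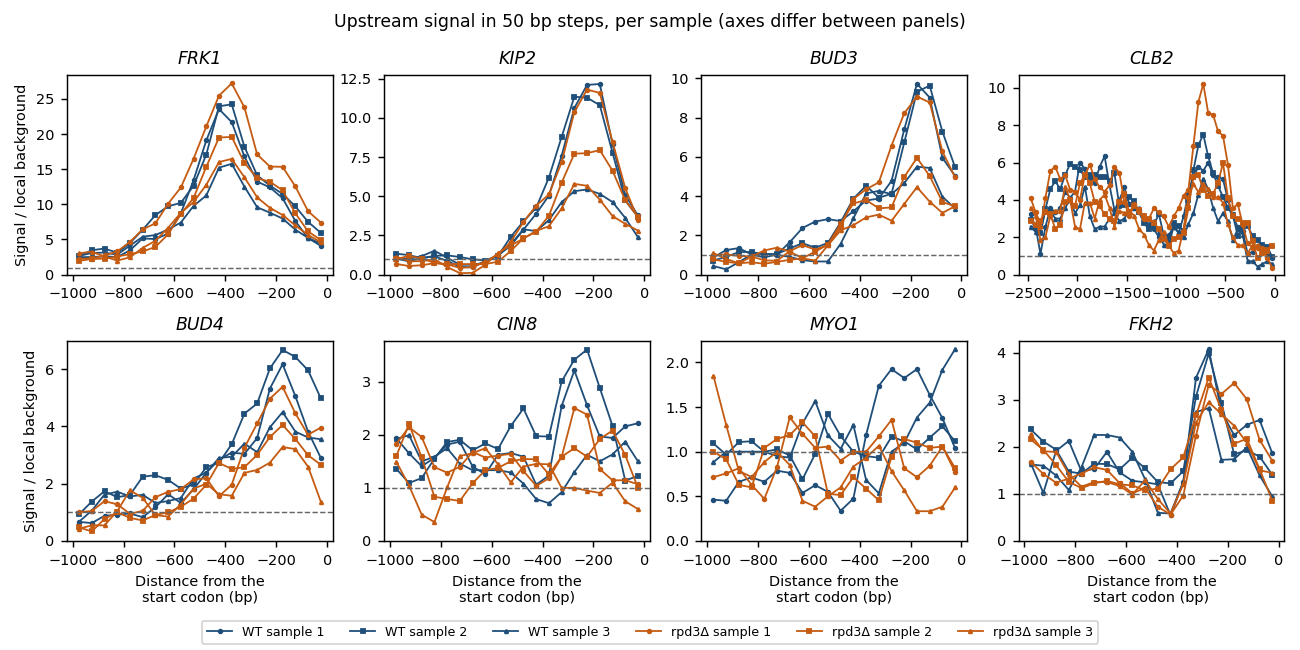
Signal over local background (y axis, no unit, scale differs between panels) in steps of 50 bp upstream of the start codon (x axis, bp; 2500 bp for CLB2, 1000 bp for the others) in 8 genes, 1 line per sample, blue for WT and orange for rpd3Δ. FRK1, KIP2, BUD3 and BUD4 have single maxima shared by the samples. CLB2 has a pair of maxima, at 725 and 1925 bp in the means, and the samples differ in the position of the far one. CIN8 has a low maximum at 225 to 275 bp in WT samples 1 and 2 and in rpd3Δ sample 1. MYO1 has no step shared by the samples.

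Against these levels the differences between rpd3Δ and WT were small. The order of the promoters was similar in both genotypes (Spearman rho 0.957 over the 31 genes and 0.895 over all promoters, as descriptions across genes), and 6 of the 8 highest in WT were among the 8 highest in rpd3Δ. In the 500 bp promoter fit (edgeR quasi-likelihood test, Benjamini-Hochberg over all 5970 promoters) 2 of the 31 fell in rpd3Δ, CIN8 and MYO1, where 1.26% of all promoters fell. None of the 31 rose, where 0.335% of all promoters did. At an unadjusted p under 0.05, 1 member was higher and 4 were lower, against 259 and 563 of all 5970 promoters. DESeq2 called 0 members in either direction, against 13 higher and 32 lower over all promoters. The median log2 fold change of the 31 was -0.07, against -0.06 over all promoters. Scaled counts of the genotypes did not overlap for 4 members, CDC5, BUD4, MYO1 and SPO12, each lower in rpd3Δ, where 11.7% of all promoters were lower and 5.68% higher without overlap. Ratios over local background did not overlap for 3, HOF1, MYO1 and SPO12, also lower in rpd3Δ, where 8.63% of all promoters were lower and 3.02% higher.

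**Figure D5:**
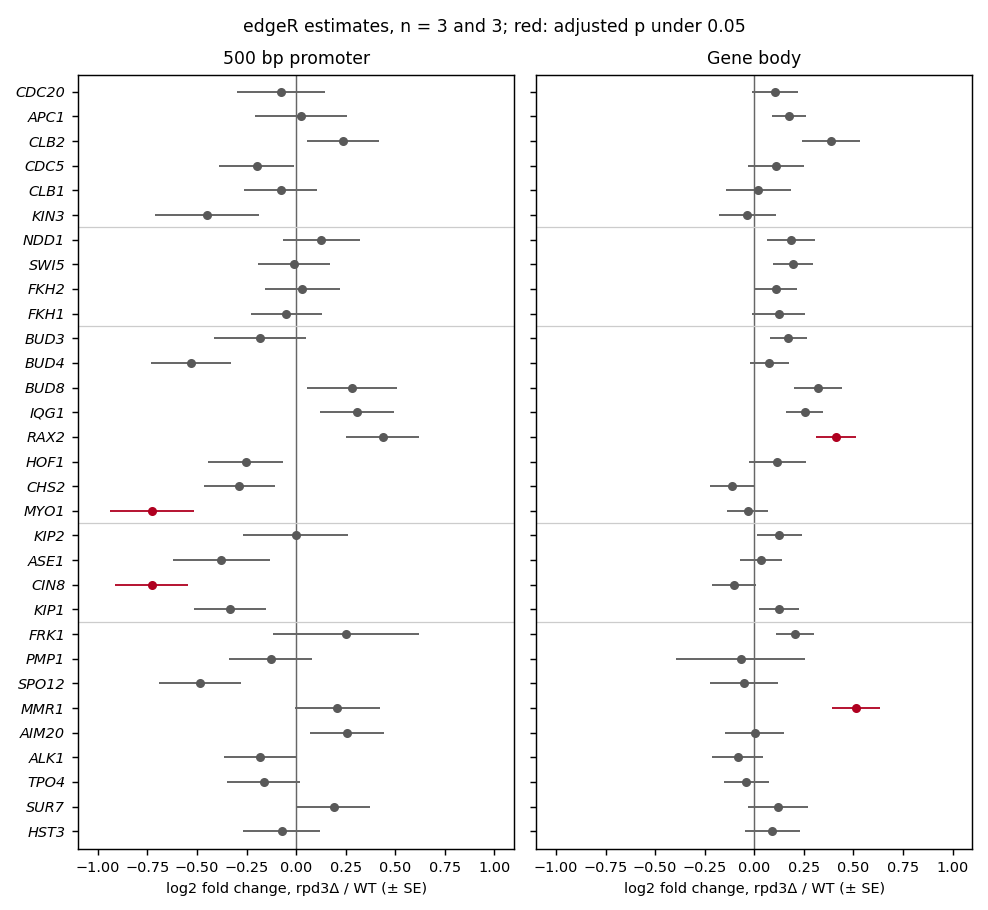
Log2 fold change of rpd3Δ over WT (x axis; points with bars of 1 SE, n = 3 samples per genotype) for the 31 genes (rows by role) in the 500 bp promoter at left and the gene body at right, with red for an edgeR adjusted p under 0.05. CIN8 and MYO1 at -0.73 are red at left, MMR1 at 0.51 and RAX2 at 0.41 are red at right, and most other bars cross or come near 0.

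CIN8 gave the clearest fall. WT samples had scaled promoter counts of 15.9, 18.7 and 9.79 per bin, and rpd3Δ samples 9.80, 9.95 and 7.31. WT sample 3 lay within the range of the rpd3Δ samples, so the genotypes overlapped. The log2 fold change was -0.73 (SE 0.184; edgeR adjusted p = 0.0165). Over 1000 bp the counts were 14.3, 15.6 and 10.9 against 10.4, 9.01 and 7.72, without overlap, and the fall was -0.59 on the log2 scale (SE 0.136; edgeR adjusted p = 0.00246). The local background around CIN8, whose coding sequence lies at positions 36535 to 39537 near the left end of chromosome V, also fell, by 0.24 on the log2 scale. With each sample's local background as an offset the promoter change was -0.48 (edgeR adjusted p = 0.477) and the 1000 bp change -0.34 (edgeR adjusted p = 0.394). The promoter call was lost too without WT sample 1 (edgeR adjusted p = 0.183), WT sample 2 (0.340), rpd3Δ sample 2 (0.0631) or rpd3Δ sample 3 (0.0886), and with DESeq2 (0.150). The 1000 bp call was lost without WT sample 2 (edgeR adjusted p = 0.103).

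MYO1, for the heavy chain of the myosin in the contractile ring, fell from a promoter already near background. WT samples had scaled counts per bin of 10.6, 9.25 and 9.53, and rpd3Δ samples 6.41, 6.01 and 5.14, without overlap. Over local background the WT ratios were 1.35, 1.1 and 1.25 and the rpd3Δ ratios 0.971, 0.829 and 0.633. The log2 fold change was -0.73 (SE 0.212; edgeR adjusted p = 0.0489), with a local background lower by 0.12 in rpd3Δ as well. This call stood at the threshold: it was lost under 5 of the 6 omissions of a sample, with adjusted p of 0.0662 to 0.25 by edgeR, and it held only without rpd3Δ sample 1. It was also lost with the local background as an offset, where the log2 fold change was -0.59 (edgeR adjusted p = 0.399), and with DESeq2, where it was -0.73 (adjusted p = 0.103). Under the 6 omissions the log2 fold change ran from -0.80 to -0.65.

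BUD4 fell in the 1000 bp window. Scaled counts per bin there ran to 19.4, 23.4 and 19.0 for WT against 16.7, 14.1 and 12.7 for rpd3Δ, without overlap. The log2 fold change was -0.50 (SE 0.148; edgeR adjusted p = 0.0234); in the 500 bp promoter it was -0.53 (SE 0.203; edgeR adjusted p = 0.174). With CIN8, BUD4 made 2 of the 31 that fell over 1000 bp, where 4.27% of all 1000 bp windows fell. None of the 31 rose there, where 1.74% of all windows did. At an unadjusted p under 0.05, 2 members were higher and 6 lower, against 386 and 772 of all 5972 windows. DESeq2 called 0 members higher and 2 lower, CIN8 and BUD4. Its share over all 1000 bp windows is not given here, so that count is not set against them. Without overlap of the genotypes, 6 of the 31 were lower over 1000 bp in scaled counts, where 14.2% of all windows were lower and 8.41% higher, and 4 in ratios over local background, where 9.61% were lower and 4.42% higher; no member was higher without overlap by either measure. The BUD4 call was lost without WT sample 1 (edgeR adjusted p = 0.060), WT sample 2 (0.230), rpd3Δ sample 2 (0.135) or rpd3Δ sample 3 (0.110), and with the local background as an offset (0.344), where the log2 fold change was -0.43. Under the 6 omissions the log2 fold change ran from -0.62 to -0.40.

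In the gene bodies, 2 of the 31 rose in rpd3Δ, MMR1 and RAX2, where 4.07% of all bodies rose; none fell, where 3.13% did. At an unadjusted p under 0.05, 7 members were higher and 0 lower, against 720 and 518 of all 5947 bodies. DESeq2 called 2 members higher, MMR1 and RAX2, and 0 lower. Its share over all bodies is not given here, so that count is not set against them. The estimate was above 0 for 23 of the 31 and for 3090 of all 5947 bodies. The median log2 fold change was 0.11 against 0.01 over all bodies. MMR1 had scaled counts per bin of 8.48, 7.97 and 10.3 in WT and 12.9, 12.1 and 12.9 in rpd3Δ, this was a log2 rise of 0.51 (SE 0.119; adjusted p = 0.00329 by edgeR). RAX2 had 7.71, 6.72 and 7.33 in WT and 8.39, 9.67 and 10.9 in rpd3Δ, a log2 rise of 0.41 (SE 0.0999; adjusted p = 0.00519 by edgeR). Scaled counts did not overlap for 5 bodies, CLB2, APC1, SWI5, RAX2 and MMR1, each higher in rpd3Δ, where 13.6% of all bodies were higher and 10.3% lower. Ratios over local background did not overlap for 6, again higher in rpd3Δ, where 9.59% of all bodies were higher and 7.96% lower. MMR1 and RAX2 both lie on chromosome XII, which also carries the rDNA, and the local background around them rose by 0.45 and 0.27 on the log2 scale. With the local background as an offset the changes were 0.05 (edgeR adjusted p = 0.90) for MMR1 and 0.14 (0.567) for RAX2. The MMR1 call was lost without WT sample 2 (edgeR adjusted p = 0.0516) and the RAX2 call without rpd3Δ sample 2 (0.0513).

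Other CLB2 cluster genes outside the list were read the same way. Of these 14, WT placed 7 promoters (50%) and rpd3Δ placed 6 at a ratio of 2 or more, with medians of 1.86 and 1.68. The highest was TEM1, for the GTPase that starts the mitotic exit network. TEM1 had 25.0, 29.9 and 18.2 in WT and 25.0, 18.5 and 13.8 in rpd3Δ, rank 3 of all promoters in WT, and it shares 605 bp with the ribosomal protein gene RPS1B. DBF2, for a kinase of the same network, followed with 7.99 ± 1.11 in WT and 6.54 ± 2.04 in rpd3Δ. None of the 14 promoters passed the edgeR threshold (2 at an unadjusted p under 0.05, both lower, and 0 by DESeq2). Among the bodies, GAS3 had scaled counts per bin of 11.4, 10.9 and 11.6 in WT and 16.2, 14.5 and 13.4 in rpd3Δ, a log2 rise of 0.38 (SE 0.108; adjusted p = 0.0189 by edgeR). DBF2 had 11.3, 10.5 and 9.76 against 14.9, 12.3 and 13.0, a log2 rise of 0.35 (SE 0.109; adjusted p = 0.0381 by edgeR). NUM1 had 7.02, 6.36 and 8.09 against 7.92, 9.13 and 8.51, a log2 rise of 0.26 (SE 0.0811; adjusted p = 0.0421 by edgeR). GAS3 and DBF2 did not overlap between the genotypes and NUM1 did, where 13.6% of all bodies were higher without overlap. By edgeR 4.07% of all bodies rose. DESeq2 called 2 of the 14 bodies higher, fewer than the edgeR fit did, and 0 of the 14 passed with the local background as an offset.

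The partners and repressors differed among themselves. YHP1 and YOX1 encode homeobox repressors that act with Mcm1; YHP1 had 4.33 ± 0.70 in WT and 3.8 ± 0.75 in rpd3Δ, and YOX1 had 1.20 ± 0.23 and 1.27 ± 0.18. With MCM1 and with CDC28, the gene of the cyclin-dependent kinase, the median over the 4 genes was 1.16 in WT and 1.20 in rpd3Δ. None of the 4 passed the edgeR threshold in any window, with 0 at an unadjusted p under 0.05 and 0 by DESeq2.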

How the data were processed

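Anti-FLAG ChIP-seq of 3 WT and 3 rpd3Δ samples was analysed. The authors deposited 1 raw, unnormalized read count for every 50 bp bin of the 16 nuclear chromosomes. The R64 build and the tools Bowtie2, SAMtools and bedtools are named per the submitters' processing notes; read filters are not given in the sources used for this work. A read across a bin border counts in each bin it touches, so neighbouring bins are not independent.

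Genes were placed by RefSeq's R64 table. Counts were summed over the 500 bp and 1000 bp upstream of each start codon and over each gene body, leaving out the rDNA, the deleted genes and windows with a mean under 10 counts. Library size was set by TMM over 1193 bins of 10 kb outside the rDNA. Scaled counts per bin are counts over the effective library size times its mean. The genotypes were tested with edgeR 4.0.16 in R 4.3.3 (quasi-likelihood fit and test), no covariate, Benjamini-Hochberg at 0.05 over all windows of a kind; DESeq2 1.42.0 was an alternative. With 3 against 3 samples an exact permutation test cannot go below p = 0.1, so none was used for single genes. Binding regions were runs of at least 200 bp in which the summed samples, averaged over 500 bp, reached 2 times the local median. WT samples 1 and 2 had different rDNA shares and were counted as 2 samples. The fit was tested on simulated promoter counts. It called 98% and 92% of simulated log2 changes of -1 and 1. Of changes of -0.5 and 0.5 it called 18% and 26%, so most changes of that size were missed.

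The members and lists were chosen with earlier results of these data known. By rule, full values are given for members past the threshold of an upstream fit, the 8 with the highest WT promoter signal, CLB2, SWI5, FKH1 and FKH2, and genes of the other lists are named where past the threshold or among the 2 highest. CLB1, BUD8, MMR1, RAX2 and other members were singled out after their values were seen. The values of 1 other CLB2 cluster gene are not reported here. Promoter sequences and motifs were not analysed here. Python 3.11.15 with pandas 2.3.3, numpy 2.4.6 and matplotlib 3.10.9 made the tables and plots.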

Additional observations from a re-analysis of the deposited data

How the results depend on the processing

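Alternatives with all 6 samples moved the promoter calls (20 higher and 75 lower over all promoters, 0 and 2 among the 31 genes) more than the levels. Over all promoters the calls were 38 higher and 66 lower with total counts outside the rDNA, 66 and 52 with TMM over the windows, 2 and 2 with the local background as offset, 13 and 32 with DESeq2, 3 and 21 with WT samples 1 and 2 pooled, 4 and 14 in 250 bp windows and 104 and 255 in 1000 bp windows. Members that fell were 1 with total counts, with TMM over the windows and with a minimum of 50 counts, and 0 with the offset, DESeq2, pooling or 250 bp. Leaving out 1 sample gave 1 to 34 higher and 9 to 154 lower, and among the 31 genes 0 to 1 higher and 0 to 3 lower. In 1000 bp windows the calls were 151 and 232 with total counts, 211 and 202 with TMM over the windows, 4 and 9 with the offset and 39 and 124 pooled, with members 0 higher and 2 lower, 1 and 2, 0 and 0, and 0 and 1 in turn; leaving out 1 sample gave 22 to 109 higher and 83 to 347 lower, and 0 to 1 and 0 to 3 members. Gene body calls were 46 and 55 with the offset, where 0 members were called, and 141 higher when pooled; leaving out 1 sample gave 108 to 301 higher and 89 to 201 lower, 1 to 4 members higher and a members' median of 0.058 to 0.14. The members' promoter median ran from -0.25 without rpd3Δ sample 1 to 0.01 without rpd3Δ sample 3, so it gives no direction. With the highest 50 bp bin in place of the window mean, 27 members reached 2 times the local background in WT, with a median of 3.06. A highest bin is never below the window mean, and this count was not made over all promoters. For the highest step within 1000 bp upstream, the WT median was 2.91 in the members and 1.69 over all promoters. Of 1363 values of single genes under an alternative, 1317 kept their side of the threshold, 33 lost it and 13 gained it, and 0 changed direction while called.

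Replicate numbers are shared by both genotypes in the labels, but not every same-numbered pair deviated together: r over the promoter windows was 0.0746, -0.0146 and 0.167, the last, for samples 3, being above 0.1 and the highest of the 9 pairs. The numbers were therefore not taken to pair the samples. With the replicate block the promoter calls were 52 higher and 135 lower, with 3 members lower, and the 1000 bp calls 167 higher and 362 lower. Among the pairs of WT sample 2, that with rpd3Δ sample 1 was the highest, at r = 0.146, below the 0.167 of samples 3. The cause of each change was not tested. At 7 to 12 counts in the median bin, a change that misses the threshold is not shown to be absent.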
